A study of Mus musculus with 6 samples.

Results

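The large-subunit (Mrpl) and small-subunit (Mrps) protein genes of the mitochondrial ribosome were followed in mouse B-cell acute lymphoblastic leukaemia cells exposed to DHA (dihydroartemisinin), the compound that artemisinin antimalarials become in the body. A gene belonged to the set when a probe set's single annotated symbol began with Mrpl or Mrps and a digit and was not a pseudogene. This gave 71 of the 22180 genes that single-gene probe sets name, 43 by the prefix of the large subunit and 28 by that of the small. The 71 genes had 80 probe sets, and where a gene had several, the one with the highest mean over the 6 arrays stood for it.

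All cells carried the BCR-ABL oncogene. The DHA group received 312 nM DHA for 4 h and the control group the vehicle dimethyl sulphoxide (DMSO), with 3 Affymetrix arrays each; how long the vehicle cells were exposed is not labelled per array. The growth notes name p185+ cells, with or without T315I, and Arf-/- or p53-/- backgrounds, without tying a genotype to an array, and separate cultures are not stated, so the p-values below measure the spread between these 6 arrays, which may be technical. Of the B-lineage markers, 9 were tested and 8 of them, Cd79a and Pax5 among them, lay well above the lower limit for testing, while Vpreb1 was near it at 4.78. Of the 20 markers of other lineages with a probe set, 15 passed the filter, with means between 4.54 and 9.43 (Pecam1, at the top). The filter was the 30th percentile of gene means, 4.52 on the log2 scale, and left 15526 genes.

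The mitochondrial ribosome translates the few messages of the mitochondrial genome, which encode core subunits of the respiratory chain and the ATP synthase. Its rRNAs come from mitochondrial DNA, whereas its proteins are encoded in the nucleus, made in the cytosol and imported. The large subunit forms peptide bonds and holds the exit tunnel, and the small subunit reads the message. Compared with its bacterial relative it has lost rRNA and gained proteins without a bacterial counterpart. Nuclear genes for mitochondrial proteins are known to share promoter elements for the factors NRF1, GABP (an ETS factor) and YY1.

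Some promoter motifs were more frequent in the set than among other genes, though each was absent from most member promoters. RefSeq promoters (GRCm38.p6, from 250 bases before to 50 after the start) were found for 62 of the 71 genes, 68 promoters in all. Motifs were searched on both strands. The ETS core CCGGAAG was present in 33.8% of the member promoters, against 14.5% of the 15107 promoters of tested genes and 8.86% of all 32851. The NRF1 motif GCGCATGCG was found in 10.3%, against 3.03% and 1.75%. For the YY1 motif AAGATGGCG the shares were 11.8%, 2.39% and 1.40%. At least 1 of these motifs stood in 48.5% of the member promoters, against 18.6% of those of tested genes and 11.4% of all. The E-box CACGTG was about as frequent among members (10.3%) as among tested genes (9.40%). The composite element TGATGNAA, of the kind bound by the stress factor ATF4, was in 0 of the 68 member promoters, against 2.52% of the promoters of tested genes. With so low a share among tested genes, 0 of 68 cannot show an absence particular to the members. By subunit, the ETS core stood in 12 of 42 large-subunit and 11 of 26 small-subunit promoters, and the NRF1 motif in 6 and 1. These matches describe letters and show no binding.

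**Figure D1:**
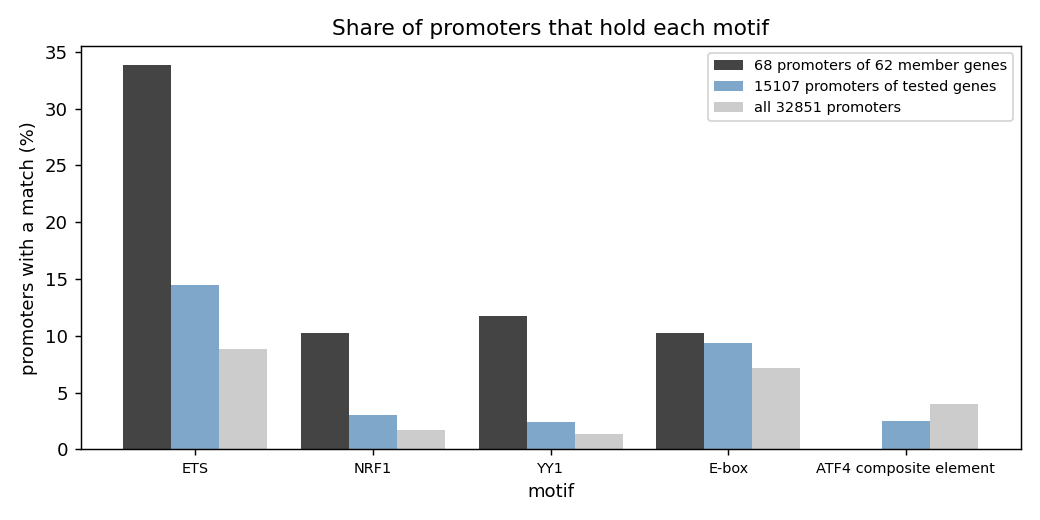
Share of promoters (%, vertical axis) with a match to each of 5 motifs (horizontal axis), as bars for the 68 promoters of member genes, the 15107 promoters of tested genes and all 32851 promoters. The ETS bar of the members stands at 33.8% and the members have no bar for the ATF4 composite element.

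The upstream bases of 4 members are shown because, among genes with 1 listed promoter and groups that did not overlap, they had the largest differences in each direction: Mrpl42 and Mrpl51 lower with DHA, Mrpl9 and Mrps18b higher. Each run gives the 250 bases before the start on the gene's strand, from RefSeq GRCm38.p6, with motif matches in capitals (ETS in Mrpl51, NRF1 in Mrpl9 and Mrps18b; in Mrpl9 the capitals join overlapping matches on both strands). The windows are chr10:95501950-95502199 (minus strand) for Mrpl42, chr6:125191950-125192199 (plus) for Mrpl51, chr3:94443086-94443335 (plus) for Mrpl9 and chr17:35916441-35916690 (minus) for Mrps18b.
Mrpl42: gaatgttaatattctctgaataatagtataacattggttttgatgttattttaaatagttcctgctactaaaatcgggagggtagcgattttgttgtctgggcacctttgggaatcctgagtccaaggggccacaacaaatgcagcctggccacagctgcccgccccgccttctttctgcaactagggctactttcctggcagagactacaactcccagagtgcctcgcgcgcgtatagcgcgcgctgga
Mrpl51: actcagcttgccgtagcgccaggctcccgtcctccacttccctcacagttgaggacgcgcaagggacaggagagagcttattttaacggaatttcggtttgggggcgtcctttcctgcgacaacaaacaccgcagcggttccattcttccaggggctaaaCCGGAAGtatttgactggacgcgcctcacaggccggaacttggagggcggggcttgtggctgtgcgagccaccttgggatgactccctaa
Mrpl9: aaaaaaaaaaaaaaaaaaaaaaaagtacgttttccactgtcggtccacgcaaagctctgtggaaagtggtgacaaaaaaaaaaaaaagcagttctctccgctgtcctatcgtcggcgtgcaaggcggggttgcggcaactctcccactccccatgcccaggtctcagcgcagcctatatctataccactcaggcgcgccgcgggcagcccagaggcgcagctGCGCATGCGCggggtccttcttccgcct
Mrps18b: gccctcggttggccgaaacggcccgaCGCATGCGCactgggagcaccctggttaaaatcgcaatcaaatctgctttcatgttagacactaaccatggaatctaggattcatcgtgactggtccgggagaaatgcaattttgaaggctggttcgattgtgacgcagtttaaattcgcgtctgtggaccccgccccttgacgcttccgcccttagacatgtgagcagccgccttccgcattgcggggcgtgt
The Mrpl42 run had no match. In the whole windows Mrpl42 also had a YY1 match and Mrps18b an ETS match, outside the bases printed.

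At 4 h, the mean RNA level of each mitochondrial ribosomal protein gene on the DHA arrays lay within 0.5 log2 units of that with vehicle. By limma, 0 of the 71 members reached an adjusted p of 0.05 or less, adjusted over all tested genes, of which 0.0902% did. All 71 had passed the filter on low values. The log2 differences, DHA minus DMSO, ran from -0.33 (Mrpl42) to 0.25 (Mrps18b), and 43 of 71 were smaller than 0.1 in size (60.6%, against 66.1% of tested genes). Differences over 0.2 in size were found in 15.5% of members and 10.2% of tested genes. The 95% interval of each of the 71 differences lay within 0.5 of 0 on the log2 scale (largest bound 0.49). The median difference was -0.029, with 43 genes lower and 28 higher, beside a median of 0.0027 over the 15526 tested genes. The median standard error (SE) was 0.059 for the members and 0.068 for tested genes.

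Below the threshold, the members leaned to lower values. At an unadjusted p under 0.05 by limma, 11 of 71 were lower with DHA (15.5%, where 6.08% of tested genes were) and 4 were higher (5.63%, where 5.94% were). In 14 members each DHA array lay under each DMSO array (19.7%, against 8.19% of tested genes), and in 6 each lay above (8.45%, against 7.64%). The count lower was 44 of 71 after median centring and 40 of 71 after quantile normalization. DMSO replicate 2 was the vehicle array with the highest value in 32 of the 71 genes (45.1%, against 34.5% of tested genes). Without that array, the count lower was 38 of 71 and the median -0.0048. Without DMSO replicate 3 it was 50 of 71 and the median -0.051. The number lower at an unadjusted p under 0.05 was 6 without DMSO replicate 1 and 7 without DHA replicate 3. In those fits 10.2% and 9.95% of tested genes were under that p in either direction. Both shares were smaller than with all 6 arrays (6.08% lower and 5.94% higher), so the counts of 6 and 7 cannot be read against 6.08%. What single arrays contribute beyond this was not tested.

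**Figure D2:**
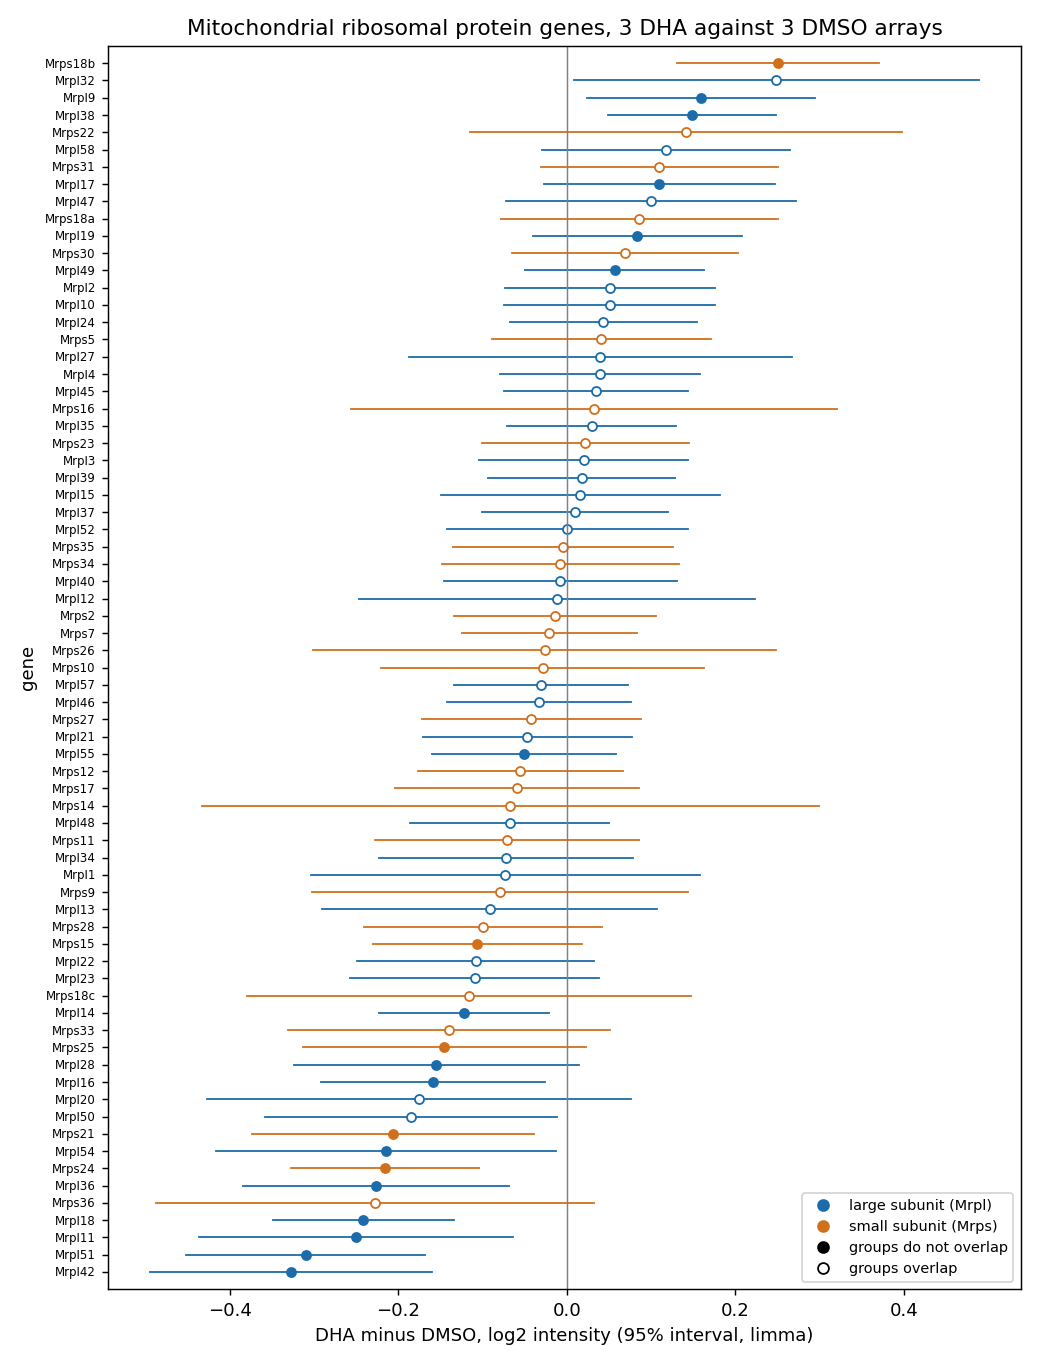
Difference between the 3 DHA and 3 DMSO arrays (log2 intensity, horizontal axis) for each of the 71 genes (vertical axis, ranked), with the 95% limma interval as a line, large-subunit genes in blue and small-subunit genes in orange. Filled points mark the 14 lower and 6 higher genes whose groups do not overlap, and no interval passes 0.5 in size.

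Among large-subunit genes, the 2 largest differences were in proteins without a bacterial counterpart. Mrpl42 measured 9.47, 9.67 and 9.43 on the DMSO arrays and 9.18, 9.22 and 9.19 on the DHA arrays. The groups did not overlap, and the DMSO arrays were spread more widely (SD 0.13) than the DHA arrays (SD 0.017). Its log2 difference was -0.33 (SE 0.070, 95% interval -0.49 to -0.16; limma adjusted p = 0.155). Mrpl51 measured 9.07, 9.09 and 9.04 with DMSO and 8.65, 8.79 and 8.83 with DHA. All DHA arrays were below all DMSO arrays, DHA replicate 1 the furthest, and the difference was -0.31 (SE 0.059; limma adjusted p = 0.126). Exact permutation of the arrays gave p = 0.1 for both genes, the smallest value that 3 against 3 arrays allow, as for each of the genes without overlap.

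Of the other lower large-subunit genes, Mrpl18, a protein of the central protuberance whose human counterpart also has a cytosolic form made under heat stress, had the smallest p of all members. It measured 8.98, 9.04 and 9.05 with DMSO and 8.76, 8.80 and 8.79 with DHA, a difference of -0.24 (SE 0.045, 95% interval -0.35 to -0.13; limma adjusted p = 0.126), and ranked 143 by p among the tested genes. Its groups were narrow and apart. Mrpl11, at the base of the stalk that recruits translation factors, measured 9.29, 9.38 and 9.31 with DMSO and 9.14, 9.18 and 8.91 with DHA. Its difference of -0.25 (SE 0.078; limma adjusted p = 0.294) had DHA replicate 3 furthest from the rest, and it was -0.17 without that array. Mrpl36, the counterpart of a small zinc-binding bacterial protein, measured 8.66, 8.82 and 8.67 with DMSO and 8.58, 8.43 and 8.48 with DHA. The groups were apart (difference -0.23, SE 0.066; limma adjusted p = 0.265), and its dimmer probe set had -0.084. Mrpl54 (-0.21), Mrpl16 (-0.16, the counterpart of a bacterial protein near the catalytic centre) and Mrpl14 (-0.12, at the subunit interface), chosen after their values were seen, were also lower with no overlap, with limma adjusted p of 0.390, 0.338 and 0.335.

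Among large-subunit genes without overlap, fewer were higher (5, or 11.6%) than lower (10, or 23.3%), beside 7.64% and 8.19% of tested genes. Of all 43, 20 were higher and 23 lower. Mrpl32, whose maturation by the m-AAA protease is a known control point of mitochondrial ribosome assembly in yeast and mouse, measured 8.42, 8.70 and 8.33 with DMSO and 8.81, 8.65 and 8.73 with DHA. DMSO replicate 2 lay inside the DHA range, so the groups overlapped (difference 0.25, SE 0.10, 95% interval 0.0080 to 0.49; limma adjusted p = 0.400). Mrpl9, a counterpart of bacterial L9, measured 8.03, 8.03 and 7.92 with DMSO and 8.15, 8.09 and 8.22 with DHA, each DHA array higher (difference 0.16, SE 0.057; limma adjusted p = 0.343). Mrpl38, a mitochondria-specific protein of the central protuberance, measured 9.69, 9.65 and 9.69 with DMSO and 9.82, 9.84 and 9.82 with DHA. The DHA arrays were all above (difference 0.15, SE 0.042; limma adjusted p = 0.250).

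In the small subunit the largest difference in size was a higher value. Mrps18b, a paralogue of Mrps18a and Mrps18c, measured 9.58, 9.59 and 9.69 with DMSO and 9.90, 9.84 and 9.87 with DHA. The groups were apart, with a difference of 0.25 (SE 0.050, 95% interval 0.13 to 0.37, limma adjusted p = 0.140). Its other probe set had 0.22, but there the highest DMSO and the lowest DHA array were level at 9.63. The limma adjusted p of that probe set was 0.402 when the probe set of highest variance stood for each gene. The paralogues did not share the difference of 0.25. Mrps18a, chosen after its value was seen, had 0.086 and Mrps18c -0.12, both with overlapping groups, and no test of the difference between paralogues was made. Mrps22, a mitochondria-specific protein mutated in a human mitochondrial disease, had 0.14 with overlap (DMSO 8.48, 8.78 and 8.39; DHA 8.81, 8.63 and 8.63; limma adjusted p = 0.649).

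By p, the first of the lower small-subunit genes was Mrps24, the counterpart of bacterial S3 in the head of the subunit. It measured 9.0, 8.92 and 8.91 with DMSO and 8.72, 8.71 and 8.75 with DHA, without overlap (difference -0.22, SE 0.047; limma adjusted p = 0.160). Mrps21, the counterpart of bacterial S21, measured 7.67, 7.73 and 7.53 with DMSO and 7.42, 7.52 and 7.37 with DHA. The highest DHA array and the lowest DMSO array almost met (difference -0.21, SE 0.070; limma adjusted p = 0.328). Mrps25 (-0.15) and Mrps15 (-0.11) were lower without overlap, with limma adjusted p of 0.475 and 0.481. Mrps36, the dimmest member at 5.26 on average, had -0.23 with overlap (limma adjusted p = 0.473). Its product was later assigned to the oxoglutarate dehydrogenase complex and may not be a ribosomal protein.

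**Figure D3:**
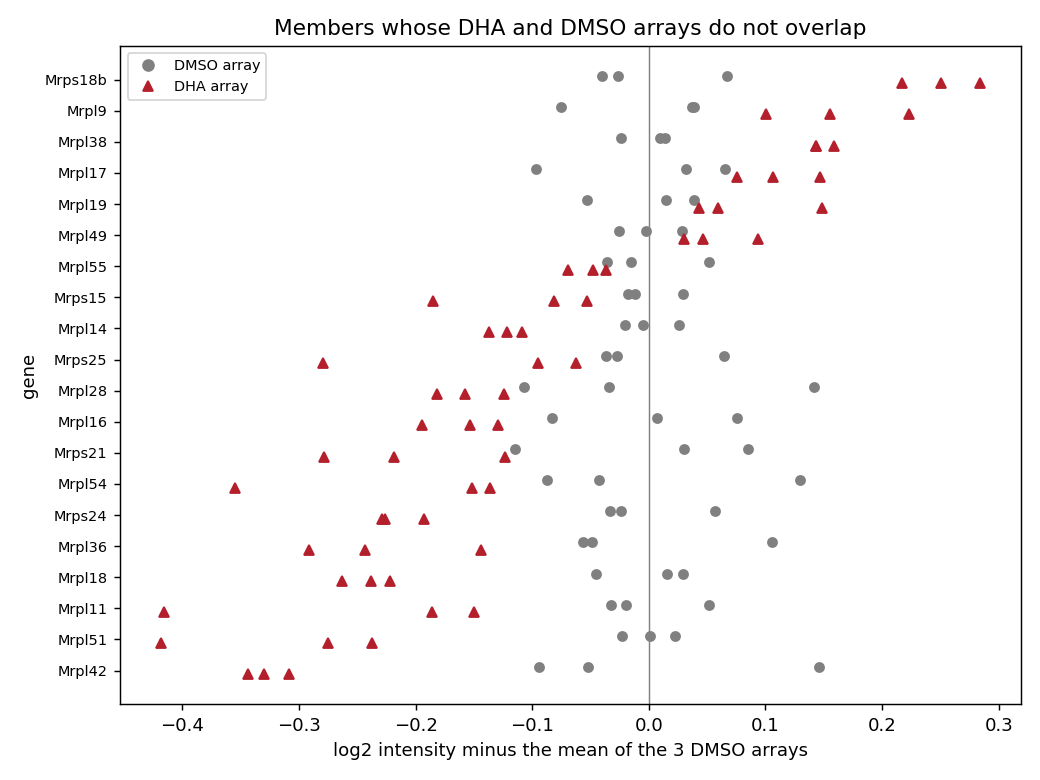
Log2 intensity of each array minus the mean of the 3 DMSO arrays (horizontal axis) for the members whose groups do not overlap (vertical axis), DMSO arrays as grey circles and DHA arrays as red triangles. The triangles lie to the left of the circles in 14 genes and to the right in 6, with the nearest symbols almost level in Mrps21, Mrpl55, Mrpl49 and Mrpl19.

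The subunits kept nearly the same distance from each other on the DMSO and DHA arrays. The mean log2 intensity of the 43 large-subunit genes was 8.97, 9.0 and 8.92 on the DMSO arrays and 8.95, 8.92 and 8.91 on the DHA arrays (8.97 ± 0.042 and 8.93 ± 0.020, SD, n = 3 per group). The 28 small-subunit genes had 8.27, 8.29 and 8.22 with DMSO and 8.24, 8.23 and 8.20 with DHA (8.26 ± 0.033 and 8.22 ± 0.022). In both subunits the groups overlapped, since DMSO replicate 3 lay within the DHA range. Large minus small was 0.708 ± 0.0095 with DMSO and 0.703 ± 0.016 with DHA, closer than the spread between arrays. The median difference, DHA minus DMSO, was -0.0114 for the large subunit (20 genes higher, 23 lower) and -0.0355 for the small (8 higher, 20 lower). With array weights the large-subunit median was 0.0026 (22 higher, 21 lower), and the small-subunit median was -0.0080 without DMSO replicate 2 and -0.0134 without DHA replicate 3. Among large-subunit genes 10 were lower (23.3%) and 5 higher (11.6%) without overlap, and among small-subunit genes 4 (14.3%) and 1 (3.57%), beside 8.19% and 7.64% of tested genes. In solved structures the products of Mrps18a and Mrps30 sit in the large subunit, and with these moved and Mrps36 left out the medians were -0.0079 and -0.042. The large median minus the small one was 0.024 by symbol, and leaving out single arrays moved it between -0.0002 and 0.0229.

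**Figure D4:**
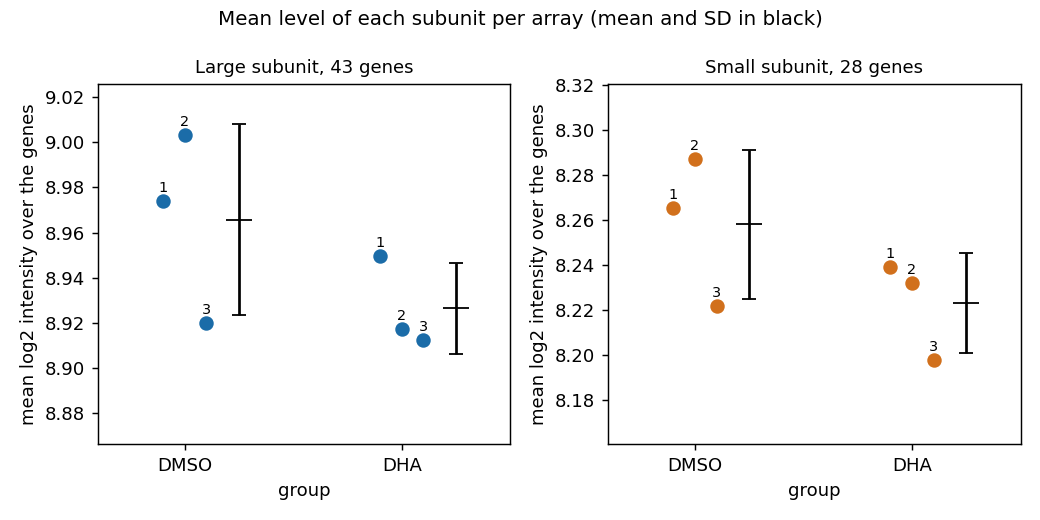
Mean log2 intensity (vertical axis) over the 43 large-subunit genes (left) and 28 small-subunit genes (right) on each array, numbered by replicate, with the group mean and SD in black. DMSO replicate 2 is the highest array in both panels, and DMSO replicate 3 lies among the DHA arrays.

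**Figure D5:**
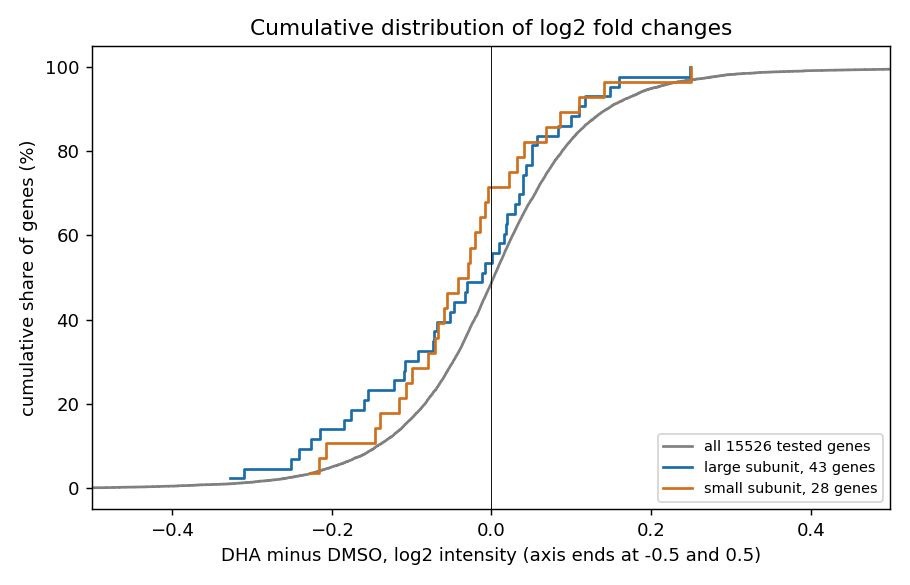
Cumulative share of genes (%, vertical axis) by difference between DHA and DMSO (log2 intensity, horizontal axis) for all 15526 tested genes and the members of each subunit. At a difference of 0 the small-subunit curve stands at 71.4%, the large-subunit curve at 53.5% and that of all tested genes at 48.8%.

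Members were also ordered by position and ancestry. Among small-subunit genes with a bacterial counterpart, 13 of 15 were lower (median -0.067), against 6 of 12 of those without (median 0.0086). Over the alternatives the first count ranged from 12 to 14 with medians of -0.0845 to -0.0175 (the last without DHA replicate 3). The second ranged from 3 to 7 with medians of -0.0417 to 0.0452, below 0 without DMSO replicate 3 (-0.0323) and without both arrays that share a title number (-0.0417). The contrast between these groups was not tested. The 12 without a counterpart include Mrps18a (0.086) and Mrps30 (0.069), both higher, whose products sit in the large subunit in solved structures. Without them, lower genes outnumber higher ones in that group and its median lies just below 0. Mrps18b (0.25), the highest of the 12, was counted there, whereas its paralogue Mrps18c was counted with the first group. Mrps36 was in neither group. In the large subunit, 15 of 28 with a counterpart and 8 of 15 without were lower, with medians of -0.029 and -0.0079. Of the 8 members listed for the head of the small subunit, 7 were lower, from Mrps24 (-0.22) to Mrps35 (-0.0045), and Mrps31 was higher (0.11). Of these 8, Mrps24 alone had groups that did not overlap, beside 8.19% of tested genes lower and 7.64% higher without overlap. A list of 8 is too short for such a count to be read. Of the 5 members listed for the central protuberance, 4 were lower, and the differences ran from -0.24 (Mrpl18) to 0.15 (Mrpl38). These position lists were chosen and may leave out members of the same region. Of the probe sets that stood for large-subunit genes, the brightest and faintest, those of Mrpl34 (mean 11.06) and Mrpl27 (6.38), had -0.072 and 0.040 with overlapping groups, and Mrpl27 was -0.062 without DMSO replicate 3. Among the 6 members listed for the exit of the tunnel, differences ran from -0.11 (Mrpl23) to 0.11 (Mrpl17), with 4 positive. Of the stalk proteins, Mrpl11 stood at -0.25, while Mrpl12 (-0.011) and Mrpl10 (0.051), which carry the stalk itself, were near 0.

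A second reading of 9 members came from further probe sets. In 5 of them, among which Mrps18b and Mrpl36, the probe sets had the same sign, and in Mrpl10, Mrpl12, Mrps16 and Mrps17 they did not. In these 4 all values lay between -0.059 and 0.051. A further 13 probe sets name such a gene together with another and were left out of the tests. Of these, 10 were lower and 3 higher with DHA, from -0.17 (Mrps6 with Slc5a3) to 0.14 (1 of the probe sets of Mrpl53 with Ccdc142, the other of which had -0.068), and what each gene of a pair contributed was not tested.

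The proteins that build and serve the mitochondrial ribosome had other values. Of 26 assembly factors, 21 were higher with DHA and 5 lower (median 0.089), and 0 passed the test (6, or 23.1%, were higher and 0 lower at an unadjusted p under 0.05, beside 5.94% and 6.08% of tested genes). Mrm1, which methylates the large rRNA, measured 7.16, 7.09 and 7.22 with DMSO and 7.66, 7.53 and 7.5 with DHA. The groups were well apart (difference 0.40, SE 0.062; limma adjusted p = 0.0894). Mtg2, a GTPase of large-subunit assembly, had 0.23 with overlapping groups (limma adjusted p = 0.336). The count of assembly factors above 0 ranged from 19 to 22 over the alternatives.

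Of 14 tested mitochondrial translation factors, 10 were higher and 4 lower (median 0.035), with 0 past the test and 1 (7.14%) in each direction at an unadjusted p under 0.05, close to the shares of tested genes. Mtfmt, which formylates the initiator methionyl-tRNA, had -0.20 (SE 0.054; limma adjusted p = 0.242), and Mrrf, the recycling factor, 0.18 (SE 0.061; limma adjusted p = 0.327), both without overlap. Of 5 genes of mitochondrial transcription, 0 passed, with 1 in each direction at an unadjusted p under 0.05, a list too short for its share to be read. Tfb2m, which helps the mitochondrial RNA polymerase open its promoters, measured 8.53, 8.91 and 8.58 with DMSO and 8.20, 8.33 and 8.10 with DHA, a difference of -0.47 without overlap (SE 0.11; limma adjusted p = 0.20). Mtpap, the mitochondrial poly(A) polymerase, had 0.17 (limma adjusted p = 0.347). Of ribosomal proteins named otherwise or lately renamed, 4 were tested and 0 passed, also at an unadjusted p under 0.05, too few for a share to be read. They had 0.12 for Mrpl58, a member that releases stalled peptides, 0.038 for Ptcd3, and, chosen after their values were seen, 0.019 for Gadd45gip1 and 0.0080 for Dap3. Among 8 tested regulators of nuclear genes for mitochondria, 0 passed, also at an unadjusted p under 0.05. With 5.94% of tested genes higher and 6.08% lower at that p, 0 of 8 cannot show that the regulators were unchanged. The smallest p were those of Ppargc1b (-0.11) and Myc (0.16), with limma adjusted p of 0.474 and 0.515. As a second set of ribosomal genes, 65 tested genes for cytosolic ribosomal proteins had a median of -0.0005 (32 higher, 33 lower), with 0 past the test. At an unadjusted p under 0.05 by limma, 0 were higher and 3 lower (4.62%, under the 6.08% of tested genes). These 3 were dim, Rpl11 (6.01 with DMSO), Rps16 (5.66) and Rps23 (7.71), beside a mean of 9.77 over the 65 genes. Some genes of this set lay near the lower limit for testing, such as Rpl3l (4.69 with DMSO).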

How the data were processed

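RNA from 6 mouse leukaemia cell samples was hybridised to Affymetrix arrays. The deposited values are log2 intensities per probe set, made by the authors with RMA in Partek 6.6, per the submitters' processing notes; the array medians ran from 5.25 to 5.31. No scanner files were used. Groups came from the agent given in the labels and replicate numbers from accession order. Of the probe sets with 1 annotated symbol, the brightest by 6-array mean stood for each gene. Genes with a mean at or above the 30th percentile (4.518) were kept, 15526 in all. limma 3.58.1 in R 4.3.3 compared DHA with DMSO (lmFit, eBayes, prior df 2.766, residual df 4, two-sided), with Benjamini-Hochberg adjustment over all tested genes and a threshold of 0.05. The procedure was tested on simulated data whose changes were all larger than any member difference. Its recovery of changes of the members' size was not tested. Exact permutation tests over arrays were two-sided. The number of arrays limits the precision.

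Named genes were, in each subunit, the 6 with the smallest p, the 2 largest differences in each direction, the brightest and faintest, genes with several probe sets and the ends of each role group; of other lists, those with the 2 smallest p. The members and lists were chosen with earlier results of these data known. Alternatives were other filters, scalings, probe set rules, moderation settings, array weights, a term for a number shared by titles, and leaving out arrays. Genes of the mitochondrial genome were not analysed here. Promoters came from a RefSeq table (GRCm38.p6).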

Additional observations from a re-analysis of the deposited data

How the results depend on the processing

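No member passed the test under any of the 16 alternatives. At an unadjusted p under 0.05 by limma, between 6 and 12 members were lower and between 2 and 6 higher. The share of tested genes under that limit, both directions together, ran from 8.73% (without DHA replicate 1) to 15.5% (50th percentile filter). The 14 genes called over the whole array became 63 when the arrays were quantile normalized, 52 when they were centred on their medians, 62 with a limit at the 50th percentile of means, 5 with no limit, 62 with trend and robust moderation, 41 with a term for the number that 2 titles share, 80 when an adjusted p of 0.1 was allowed, and 0 without both arrays of that number (1569 genes at an unadjusted p under 0.05). Leaving out single arrays gave 0 to 24: 24 without DHA replicate 2 and 0 without any other (1356 to 1710 genes at an unadjusted p under 0.05). The large-subunit median ranged from -0.0449 to -0.0048 without single arrays, the small-subunit median from -0.0517 to -0.0080, and large minus small from -0.0002 to 0.0229. With array weights the large-subunit median turned positive (0.0026). The small-subunit median was -0.0641 without both arrays of the shared title number. For the 27 named genes, 16 values changed sign, in 5 genes near 0, and 415 did not. Without single arrays, Mrpl12 ranged from -0.1236 to 0.0584, Mrps16 from -0.0404 to 0.1568 and Mrpl27 from -0.0620 to 0.1267. Mrpl12 was 0.0023 as the mean of its probe sets, 0.0160 with the probe set of highest variance and 0.0026 with array weights. Mrpl10 (-0.0069) and Mrps17 (0.0478) turned with the probe set of highest variance. Without both arrays of the shared title number, Mrpl10 was -0.0008, Mrpl27 -0.0772 and Mrps16 -0.0568. The cause of these changes was not tested. No paired analysis was possible because replicate numbers came from accession order and the titles share 1 number only, between DMSO replicate 3 and DHA replicate 2.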
